A study of Mus musculus with 4 samples.

Results

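The lysyl oxidases cross-link collagen and elastin in the extracellular matrix, and the lysyl hydroxylases prepare collagen for it inside the cell. The set described here was defined by name, as all probes whose RefSeq accession belongs to Lox, Loxl1 to Loxl4 or Plod1 to Plod3. Of these 8 genes, 7 were matched to probes, 4 of the 5 lysyl oxidases and all 3 lysyl hydroxylases, by 10 of the 41103 probes kept. No probe was matched to Lox, which is not analysed here. The signals came from p53-null mouse embryonic fibroblasts (MEFs) at day 5 after retroviral infection, in 2 groups of 2 one-colour arrays. One group was transduced with OSK, the usual name for Oct4, Sox2 and Klf4, and the other with OSK and Glis1, a zinc finger factor of the Gli-similar family. The labels call the first cells embryonic fibroblasts and the second induced pluripotent cells from embryonic fibroblasts, and all 4 samples share the p53-null genotype and the OSK factors. They give no further limit of the model, and do not say whether the 2 samples of a group were separate cultures, so the p-values cover only the spread among these arrays, which could be purely technical.

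Lysyl oxidases are secreted, copper-dependent amine oxidases. They turn lysine and hydroxylysine side chains of collagen and elastin into reactive aldehydes, which then join neighbouring chains into a fibre that no longer dissolves. Before secretion, the lysyl hydroxylases modify collagen lysines in the endoplasmic reticulum, and the hydroxylysine they make decides which kind of cross-link can form and carries the sugars attached to collagen. Fibroblasts are a main source of both families.

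Values are log2 processed signals relative to the 75th percentile of each array, so that 0 is the 75th percentile itself. A probe's level depends on its own sequence, so levels are compared between arrays and not between genes. The share of spots well above background was 59.9% to 65.2% per array, and no spot was saturated. All 10 member probes were well above background on all 4 arrays, and all 7 genes therefore passed the filter on dim probes through both groups. The probes of Glis1 and Trp53 gave no check of the labels. The Glis1 probe had means of -3.30 ± 0.05 (OSK) and -3.51 ± 0.32 (OSK+Glis1; SD, n = 2 each; limma adjusted p = 0.598). The brighter Trp53 probe had means of 0.09 ± 0.49 and -0.0047 ± 0.226, and where either probe lies on its transcript is not known here. Every direction is that of the groups as labelled. All 10 fibroblast markers on the list were well above background on all 4 arrays, with a summed signal of 415 to 456 times the 75th percentile in OSK and 347 to 381 in OSK+Glis1. Of 10 pluripotency markers with a probe, 5 to 7 were well above background in OSK and 8 to 9 in OSK+Glis1, at a summed signal of 1.21 to 2.24 and 1.19 to 2.05. No probe was matched to Nanog, and Dppa4 was not well above background on any array. Among the 9 tested, 3 rose and 0 fell (median 0.15), and all 3 passed the filter on dim probes only through OSK+Glis1. Esrrb rose at least 11.8-fold, Pou5f1 11.2-fold and Lin28a at least 1.77-fold (limma adjusted p 0.012 to 0.0489, of the fitted differences). Pou5f1 encodes Oct4, a factor given to both groups, and whether its probe reads the introduced RNA is not known here. It was at -4.52 and -5.73 in OSK, well above background on 1 of these arrays, and at -2.19 and -1.08 in OSK+Glis1. Dppa5a, the brightest of the 9, was at 0.82 and -0.80 in OSK and -1.37 and -0.73 in OSK+Glis1, and did not pass. Tested singly, 5 of the 10 fibroblast markers fell and 1 rose (median -0.91): Dcn fell 6.15-fold, Lum 4.49-fold, Thy1 3.43-fold, Col1a1 3.27-fold and Fbn1 3.04-fold, and Twist2 rose 3.00-fold (limma adjusted p 0.00543 to 0.0244). With 1 array left out, 3 to 5 fell, Fbn1, Lum and Thy1 in all 4 refits and no others when OSK replicate 1 or OSK+Glis1 replicate 2 was left out. Of these 4 refits, Twist2 passed only in the one without OSK+Glis1 replicate 2. The part of the fibroblast and pluripotency marker levels in the member values was not tested. In bulk RNA, fewer cells of a type and less RNA per cell cannot be told apart.

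The added factor recognises a G-rich sequence, and promoters of the family are shown for that reason. Promoter windows of 300 bases, 250 before the transcription start to 50 after it, came from RefSeq (GRCm38.p6). They were at hand here for only 3 of the measured members, Loxl4 (chr19:42612757-42613056, minus strand), Plod1 (chr4:147936727-147937026, minus strand) and Plod3 (chr5:136986769-136987068, plus strand). Each is written from its 5′ end in the direction of the gene, and capitals mark TGGGGGGT, the core bound by Gli-similar factors, or ACGTG, the core of the hypoxia response element, on either strand.
Loxl4: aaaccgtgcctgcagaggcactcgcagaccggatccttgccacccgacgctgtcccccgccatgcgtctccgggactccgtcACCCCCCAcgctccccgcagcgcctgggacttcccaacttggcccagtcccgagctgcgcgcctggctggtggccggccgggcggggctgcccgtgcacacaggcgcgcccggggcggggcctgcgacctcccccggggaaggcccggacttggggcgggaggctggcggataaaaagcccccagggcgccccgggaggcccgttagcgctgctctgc
Plod1: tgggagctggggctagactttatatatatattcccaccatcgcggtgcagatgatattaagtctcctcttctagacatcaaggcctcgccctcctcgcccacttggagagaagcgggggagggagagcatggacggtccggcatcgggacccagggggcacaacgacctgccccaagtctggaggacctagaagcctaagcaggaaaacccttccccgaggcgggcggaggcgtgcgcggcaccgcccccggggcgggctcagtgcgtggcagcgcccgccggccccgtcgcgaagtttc
Plod3: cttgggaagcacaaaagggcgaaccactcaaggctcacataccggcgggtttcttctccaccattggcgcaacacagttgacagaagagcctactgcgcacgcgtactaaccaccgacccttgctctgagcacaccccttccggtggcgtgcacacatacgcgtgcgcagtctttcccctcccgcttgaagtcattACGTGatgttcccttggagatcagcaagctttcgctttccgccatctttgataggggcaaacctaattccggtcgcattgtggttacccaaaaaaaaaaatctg

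The Gli-similar core was found once in the Loxl4 window, in reverse complement (ACCCCCCA) from base 83, and not in the Plod1 or Plod3 window. Of all 32851 windows of that length, 1.52% held it. The hypoxia core was found once, in the Plod3 window from base 197, and 19.6% of all windows held it. The 2 cores do not overlap in these windows, and such matches describe letters only. The windows of Loxl4, Plod1 and Plod3 held 32, 25 and 19 CG pairs, against a median of 7 over all windows.

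No member passed the test between the groups. Of the 7 genes, 0 were higher and 0 lower at an adjusted p of 0.05 in limma, against 6.05% of all 19171 genes higher, 8.17% lower and 14.2% in either direction. Higher genes made up 42.6% of those calls here and 53.6% with arrays centred on their medians. At an unadjusted p under 0.05 there were 2, Loxl1 and Plod2, a share near the 29.2% of all genes. The median difference of the 7 genes was -0.07, and that of all genes 0.05. Tested probe by probe, 0 of the 10 member probes passed, against 13.4% of all probes. The groups did not overlap for 3 of the 7 genes, Loxl1, Loxl3 and Plod2, against 59.9% of all genes.

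**Figure D1:**
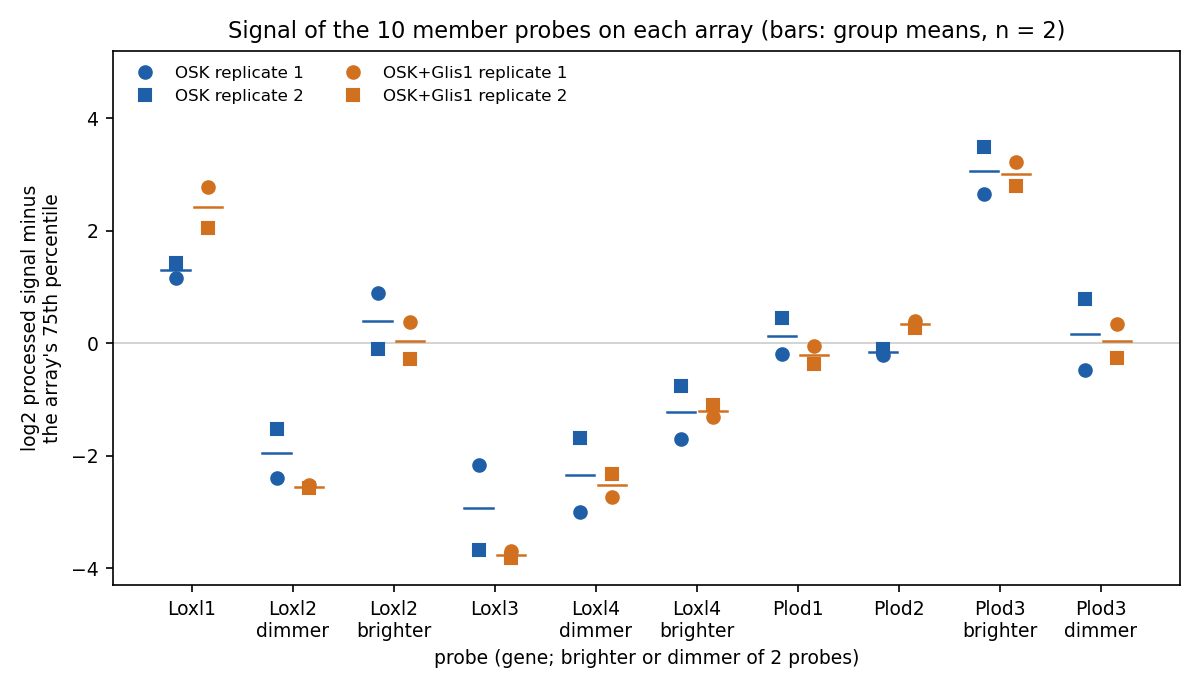
Log2 processed signal relative to the 75th percentile of the array (vertical axis) for the 10 member probes (horizontal axis) on each array, with short bars for the means of the 2 arrays of a group. Only the Loxl1 and Plod2 probes, the Loxl3 probe and the dimmer Loxl2 probe have both arrays of one group apart from both of the other.

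Among the lysyl oxidases, Loxl1 had the largest difference. Loxl1 acts on elastin and is held on elastic fibres by fibulin-5. Its signal was 1.17 and 1.42 on the OSK arrays and 2.79 and 2.05 on the OSK+Glis1 arrays. Both OSK+Glis1 arrays lay above both OSK arrays, with the gap within OSK+Glis1 wider than that within OSK. The OSK+Glis1 mean was 2.18-fold that of OSK (log2 difference 1.12 ± 0.30 SE), with a 95% interval of 0.34 to 1.90, and the limma adjusted p was 0.0775. Given that standard error, a difference of 1.34 (2.53-fold) was needed to pass. Without OSK+Glis1 replicate 2 the difference was 1.49 and passed (adjusted p = 0.045), and without OSK+Glis1 replicate 1 it was 0.75 (adjusted p = 0.219). It also passed under a background correction on raw spot signals with flagged local backgrounds replaced (difference 1.06, adjusted p = 0.018).

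Loxl2, which oxidises collagen IV of basement membranes, was read by 2 probes. The brighter one was at 0.90 and -0.10 on the OSK arrays and 0.37 and -0.27 on the OSK+Glis1 arrays, so the groups overlapped. The dimmer one was at -2.39 and -1.52 in OSK and at -2.53 and -2.58 in OSK+Glis1, without overlap. On the OSK arrays the 2 probes went opposite ways: the brighter was higher on replicate 1 by 1.00 and the dimmer lower there by 0.88 on the log2 scale (a difference of -0.88). Their differences between groups were -0.35 ± 0.42 SE (limma adjusted p = 0.643 over genes) and -0.60 ± 0.32 SE (adjusted p = 0.313 over probes). The 95% interval of the brighter probe ran from -1.43 to 0.73. Its difference turned to 0.15 without OSK replicate 1.

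Loxl3, a cross-linking oxidase needed for palate and spine formation, was read by 1 probe. Its processed signals were 212 and 52.6 intensity units on the OSK arrays and 65.2 and 67.3 on the OSK+Glis1 arrays. In log2 units these were -2.17 and -3.67 against -3.69 and -3.82. OSK replicate 1 stood apart, and the groups did not overlap only because OSK replicate 2 lay just above the OSK+Glis1 arrays. The difference was -0.84 ± 0.51 SE (limma adjusted p = 0.36), with an interval from -2.17 to 0.49. It was -0.09 (adjusted p = 0.8) without OSK replicate 1 and -1.59 (adjusted p = 0.0441) without OSK replicate 2, so the value rests on which OSK array is kept.

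Loxl4 is a further family member with scavenger receptor domains. Its brighter probe was at -1.70 and -0.75 in OSK and at -1.31 and -1.10 in OSK+Glis1, the OSK+Glis1 arrays lying between the OSK arrays. Its dimmer probe showed the same order, at -3.003 and -1.68 in OSK against -2.73 and -2.32 in OSK+Glis1. The difference of the brighter probe was 0.02 ± 0.35 SE (limma adjusted p = 0.974), and the interval of -0.89 to 0.93 allows from 1.85-fold lower to 1.91-fold higher. The dimmer probe gave -0.18 ± 0.47 SE (adjusted p = 0.843 over probes).

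Among the lysyl hydroxylases, Plod2 had the smallest spread. Plod2 hydroxylates the telopeptides of collagen, the step that leads to hydroxylysine-derived cross-links, and it is a known hypoxia target. It was at -0.21 and -0.09 on the OSK arrays and at 0.40 and 0.27 on the OSK+Glis1 arrays. Both OSK+Glis1 arrays were higher, and the gap within each group was 0.11 in OSK and 0.12 in OSK+Glis1. The mean was 1.40-fold higher (log2 difference 0.49 ± 0.17 SE, interval 0.05 to 0.93), and the limma adjusted p was 0.14. A difference of 0.76 (1.69-fold) was needed to pass. Across 13 alternative settings the difference stayed between 0.42 and 0.64 and passed in none of them (adjusted p 0.0918 to 0.582).

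Plod1, which hydroxylates lysines in the collagen helix, was at -0.19 and 0.45 in OSK and at -0.06 and -0.36 in OSK+Glis1, with overlap. Its difference was -0.34 ± 0.28 SE (limma adjusted p = 0.49), with an interval of -1.06 to 0.38. Plod3, which also adds the sugars to hydroxylysine, was at 2.65 and 3.49 in OSK and at 3.22 and 2.79 in OSK+Glis1 by its brighter probe. Its dimmer probe again had OSK replicate 1 lowest (-0.47) and OSK replicate 2 highest (0.79), with OSK+Glis1 at 0.34 and -0.26 between them. The Plod3 difference was -0.07 ± 0.34 SE (adjusted p = 0.921), with an interval of -0.96 to 0.82, and its sign changed with the scaling of the arrays (0.07 with arrays centred on their medians).

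**Figure D2:**
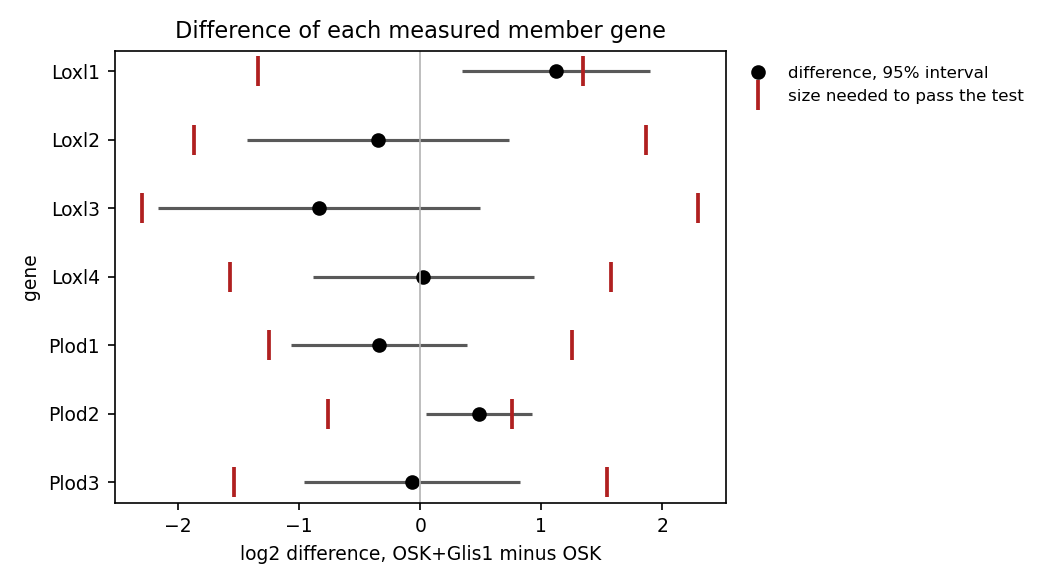
Log2 difference of OSK+Glis1 minus OSK (horizontal axis) for the 7 measured genes, with the 95% interval of the limma fit and, in red, the size that the gene's own standard error required to pass the test. All 7 points lie inside their red marks, Loxl1 (1.12 against 1.34) and Plod2 (0.49 against 0.76) nearest to them.

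The size that would have passed differed among the members from 0.76 (1.69-fold) for Plod2 to 2.29 (4.90-fold) for Loxl3. Most of the spread lay within OSK. The gap between the 2 OSK arrays was above that of 85% of all genes for 5 of the 7 members, Loxl2, Loxl3, Loxl4, Plod1 and Plod3, and it was 1.50 on the log2 scale (2.83-fold) for Loxl3. Between the OSK+Glis1 arrays the same held for 2 members, Loxl1 and Loxl2. The members did not share 1 direction within OSK: Loxl2 (brighter probe) and Loxl3 were higher on replicate 1, and Loxl1, Loxl4, Plod1, Plod2 and Plod3 on replicate 2.

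**Figure D3:**
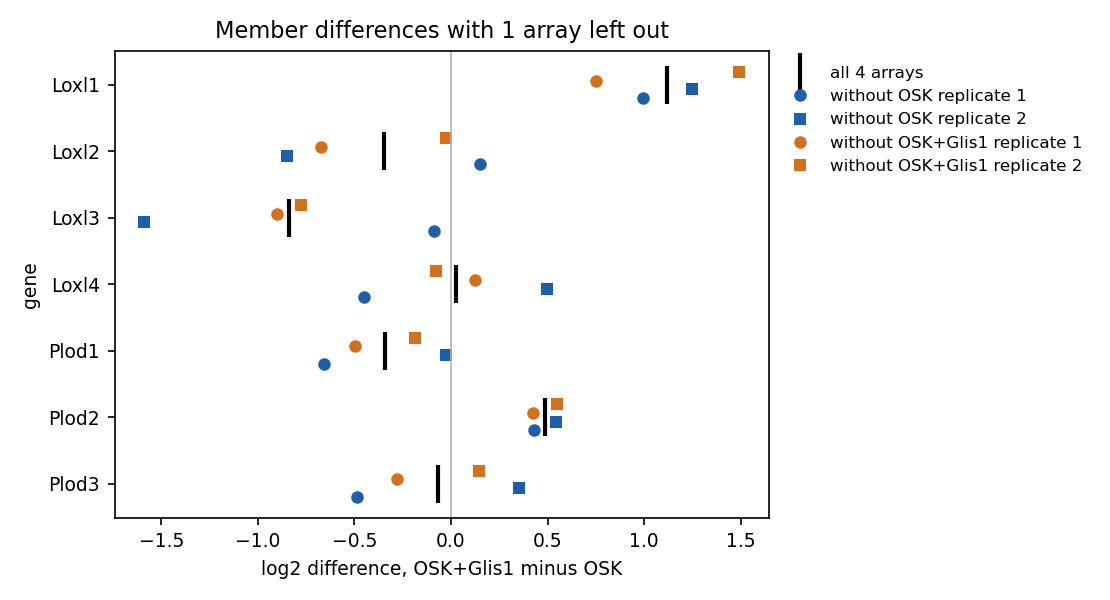
Log2 difference of OSK+Glis1 minus OSK (horizontal axis) for each gene with all 4 arrays (black bar) and with 1 array left out (symbols). Loxl1 and Plod2 stay above 0 and Loxl3 and Plod1 below 0 in all 4 refits, while Loxl2, Loxl4 and Plod3 cross 0.

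By profile over the 4 arrays, each gene's values taken relative to its own mean, the genes closest to Loxl1 among 12585 others were Vill, Camk2n2 and Cldn15, at Euclidean distances of 0.05, 0.09 and 0.13 log2 units. The genes closest to Loxl3, the member with the lowest difference, were Aar2, Celf5 and Elf2, at 0.20, 0.22 and 0.28, each with OSK replicate 1 above the other 3 arrays. None of these 6 genes passed the test (limma adjusted p 0.06 to 0.0848 for the first group and 0.284 to 0.492 for the second). They were chosen by the same values that the test uses, so this outcome and the shared order of arrays follow from the choice.

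The genes that act with these enzymes were then read in 7 lists with 66 genes tested, of which 5 rose (7.58%) and 14 fell (21.2%), against 6.05% and 8.17% of all genes (1 and 6 with OSK replicate 1 left out, 2 and 6 with OSK replicate 2, 1 and 11 with OSK+Glis1 replicate 1, and 5 and 9 with OSK+Glis1 replicate 2). Under the planned normexp correction none of these calls remained, and without the filter on dim probes those of Fkbp14, Bmp1, Col1a1, Ltbp4, Efemp2, Postn, Thbs1, Slc31a2, Car9 and Egln3 were lost. Where probes had to be well above background on all 4 arrays, 64 genes were tested, and 5 rose and 13 fell. The enzymes and chaperones of collagen hydroxylation and folding in the endoplasmic reticulum had 0 higher and 1 lower of 14 tested, a share lower (7.14%) near that of all genes, and a median of -0.11. P4ha3 was too dim to test. Without the filter on dim probes 1 gene of this list was lower, but not Fkbp14, the gene lower here. Fkbp14, a peptidyl-prolyl isomerase of collagen folding, fell 2.01-fold (difference -1.01 ± 0.22 SE; adjusted p = 0.0452 by limma), a call lost without any 1 of the 4 arrays and with the replicate number as a block. The prolyl 4-hydroxylase subunit P4ha2 (0.68 ± 0.17 SE, adjusted p = 0.0658), P3h4, a partner of lysyl hydroxylase 1 (0.89 ± 0.23 SE, adjusted p = 0.0746), and the collagen chaperone Serpinh1 (-0.55 ± 0.20 SE, adjusted p = 0.16) did not pass.

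Of the proteases and enhancers that process procollagens and the lysyl oxidase precursor, 3 of 7 tested fell (42.9%) and 0 rose, with a median of -0.09. Bmp1, the protease that cuts the lysyl oxidase precursor and the procollagen C-propeptide, was at 2.11 and 2.22 in OSK and at 1.30 and 0.93 in OSK+Glis1. Both OSK+Glis1 arrays were lower, and Bmp1 fell 2.07-fold (difference -1.05 ± 0.20 SE; adjusted p = 0.0341 by limma). Leaving out any 1 of the 4 arrays ended that call, as did centring arrays on their medians, taking the deposited log2 values and adding the replicate number as a block. The procollagen N-proteinases Adamts2 and Adamts3 fell 5.49-fold (-2.46 ± 0.36 SE, adjusted p = 0.0159) and at least 16.5-fold (adjusted p = 0.00225). The Adamts3 value is a bound, since Adamts3 was not well above background on either OSK+Glis1 array, and its p is that of the fitted difference. Adamts3 passed the filter on dim probes only through OSK, the group where it was higher. Where probes had to be well above background on all 4 arrays, Adamts3 was not tested and 2 genes of the list fell. Adamts2 did not pass when OSK replicate 1 or 2 was left out, nor with the mean of its probes. The enhancer gene Pcolce2 was at a difference of 0.61 ± 0.18 SE (adjusted p = 0.0972). No probe was matched to Tll1 or Tll2.

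The substrates of the lysyl oxidases had 2 lower and 0 higher of 8, with a median of -0.77. The fibroblast markers Dcn, Lum, Thy1 and Fbn1 fell in the same arrays, Col1a1 is on both lists, and their part in these calls and those of the scaffold genes was not tested. Elastin (Eln), at -1.97 and -2.42 in OSK and -4.93 and -5.21 in OSK+Glis1, fell 7.34-fold (-2.88 ± 0.23 SE; adjusted p = 0.00404 by limma), also without any 1 array, and Col1a1, a chain of collagen I, fell 3.27-fold (-1.71 ± 0.29 SE, adjusted p = 0.0237). The other chain of collagen I, Col1a2, which was named after its value was seen, was at 6.64 and 6.50 in OSK and 6.83 and 6.64 in OSK+Glis1 (difference 0.16 ± 0.18 SE, adjusted p = 0.609). Col1a1 no longer passed when OSK replicate 1, OSK replicate 2 or OSK+Glis1 replicate 2 was left out. Col11a1 (-1.26 ± 0.32 SE, adjusted p = 0.0715) and Col5a2 (-0.68 ± 0.25 SE, adjusted p = 0.155) did not pass.

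Among the matrix scaffold and adaptor proteins, 5 of 9 fell (55.6%) and 2 rose (22.2%), with a median of -1.27. The counts lower and higher were 2 and 0 with OSK replicate 1 left out, 2 and 1 with OSK replicate 2, 5 and 0 with OSK+Glis1 replicate 1, and 4 and 3 with OSK+Glis1 replicate 2. Fbln5 (fibulin-5), which binds Loxl1, was at -2.97 and -2.89 in OSK and -4.62 and -4.87 in OSK+Glis1. It fell 3.52-fold (difference -1.82 ± 0.18 SE; adjusted p = 0.00612 by limma), and held without any 1 array. Loxl1 itself was on average higher in the same arrays, and the contrast between the 2 genes was not tested. Fibromodulin (Fmod), a collagen-binding proteoglycan that modulates lysyl oxidase, fell 8.83-fold (-3.14 ± 0.36 SE, adjusted p = 0.00851), a call lost when OSK replicate 1 or 2 was left out. Ccn2, a matricellular protein, fell 4.38-fold (-2.13 ± 0.20 SE, adjusted p = 0.00532), also with any 1 array left out. Ltbp4, a latent Tgf-beta binding protein of elastic fibres, rose 2.37-fold (1.24 ± 0.20 SE, adjusted p = 0.0197), a call lost without OSK replicate 1, OSK replicate 2 or OSK+Glis1 replicate 1.

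A further 3 genes of that list passed and were named after their values were seen. Efemp2 (fibulin-4), which tethers lysyl oxidase to tropoelastin, was at 4.28 and 4.94 in OSK and at 6.68 and 6.22 in OSK+Glis1. It rose 3.58-fold (difference 1.84 ± 0.30 SE; adjusted p = 0.0219 by limma), the opposite direction to Fbln5, and lost its call without OSK replicate 1 or OSK+Glis1 replicate 1. Periostin (Postn) fell 5.35-fold (-2.42 ± 0.43 SE, adjusted p = 0.0274) and Thbs1 fell 2.41-fold (-1.27 ± 0.25 SE, adjusted p = 0.0341), and neither passed when OSK replicate 1 or 2 was left out, nor Thbs1 when OSK+Glis1 replicate 2 was or in the deposited log2 values.

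Lysyl oxidases receive their copper in the secretory pathway through Atox1 and Atp7a. Of 8 genes of copper uptake, delivery and storage, which also serve other enzymes, 1 rose and 0 fell, with a median of 0.19. Differences were positive for 4 of the 8 and negative for 4. Atp7a (-0.35 ± 0.18 SE, limma adjusted p = 0.288) and Atox1 (-0.12 ± 0.18 SE, adjusted p = 0.716), named after their values were seen, did not pass. The copper transporter gene Slc31a2 rose 2.13-fold (difference 1.09 ± 0.17 SE; adjusted p = 0.0199 by limma), a call lost without any 1 array, while Slc31a1 (0.60 ± 0.17 SE, adjusted p = 0.09), Cox17, which serves cytochrome c oxidase (0.48 ± 0.18 SE, adjusted p = 0.167), and Ccs, which serves superoxide dismutase (0.44 ± 0.16 SE, adjusted p = 0.154), did not pass. Of 6 other cross-linking enzymes tested, 2 fell and 0 rose (median -0.73), with F13a1 too dim to test. Both were transglutaminases of epidermis, Tgm3 (32.2-fold, log2 difference -5.01 ± 0.39 SE, adjusted p = 0.0037) and Tgm1 (22.4-fold, -4.49 ± 0.25 SE, adjusted p = 0.00231), and both calls held without any 1 array. Qsox1 (-0.91 ± 0.38 SE, adjusted p = 0.196) and Pxdn, which cross-links collagen IV (-0.55 ± 0.18 SE, adjusted p = 0.118), did not pass.

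Because Lox, Loxl2, Plod1 and Plod2 are known targets of hypoxia-inducible factors, genes of that response were read beside them. Of 14 tested, 2 rose (14.3%) and 1 fell (7.14%), with a median of 0.26. Adm (adrenomedullin), at -1.70 and -1.67 in OSK and 0.42 and 0.12 in OSK+Glis1, rose 3.86-fold (difference 1.95 ± 0.19 SE; adjusted p = 0.00557 by limma), which held without any 1 array. Car9 rose 2.27-fold (1.18 ± 0.24 SE, adjusted p = 0.0378 by limma). The prolyl hydroxylase Egln3, which marks the factor for breakdown and is itself on this list of hypoxia-inducible genes, fell 2.19-fold (-1.13 ± 0.21 SE, adjusted p = 0.0325). That is the opposite direction to Adm and Car9. Leaving out OSK replicate 1, OSK replicate 2 or OSK+Glis1 replicate 1 ended the calls of Car9 and Egln3, as leaving out OSK+Glis1 replicate 2 did for Egln3. Pgk1 was at a difference of 0.69 ± 0.17 SE (adjusted p = 0.0688).

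**Figure D4:**
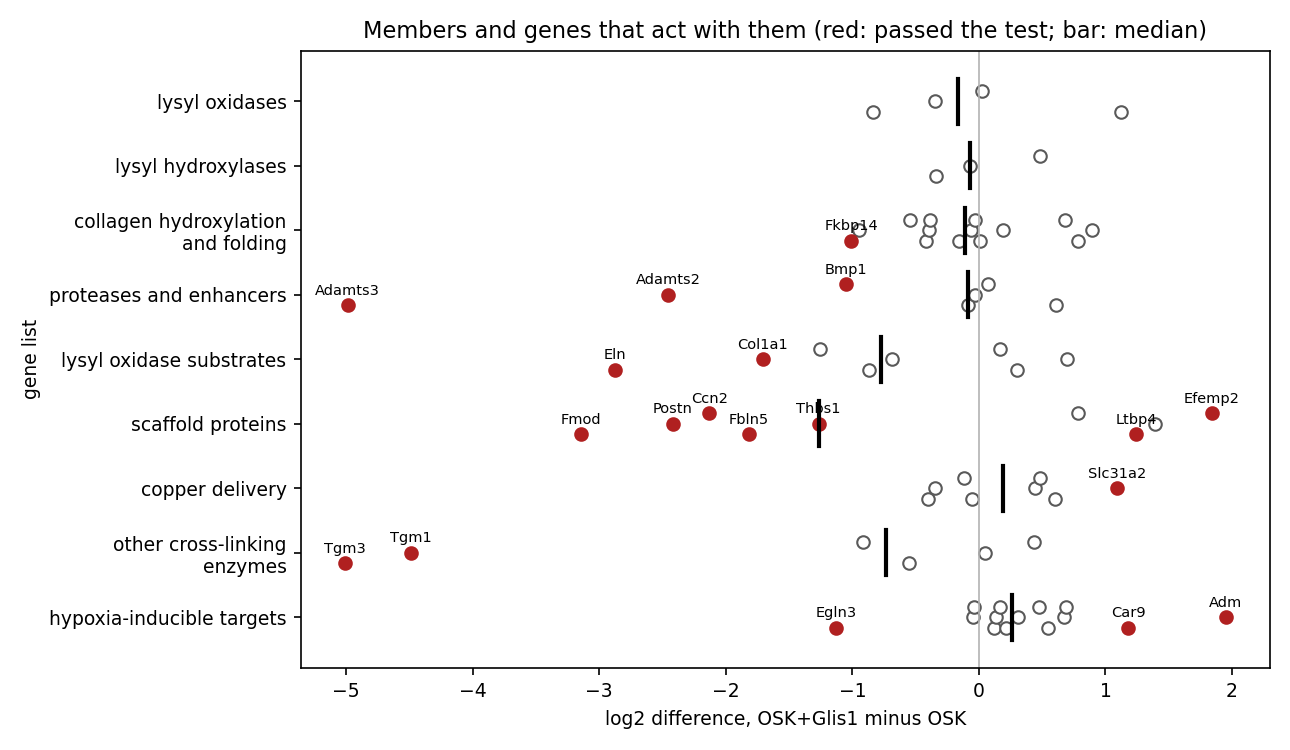
Log2 difference of OSK+Glis1 minus OSK (horizontal axis) for the 7 members and the 66 genes of 7 related lists (rows), filled red with the gene's name where the limma adjusted p was under 0.05, with a bar at each list's median. The 2 upper rows, the members, hold no red point, and the scaffold row holds 7. The Adamts3 point is the fitted value, of which only the bound of 16.5-fold is measured.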

How the data were processed

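Total RNA of 4 samples was read on one-colour (Cy3) arrays, per the labels. The authors deposited 1 table per array of intensity values from Agilent Feature Extraction 10.7.3.1, background-subtracted and detrended, per the file headers. They also deposited a table of log2 values, with no tool named. It equals the log2 processed signal minus a constant per array, within 0.01, for 99.8% of probes, with column medians of 3.1e-06, -0.00016, 0.000216 and 4.8e-05 (the OSK arrays first, each group by replicate number).

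Here, log2 processed signals were scaled to each array's 75th percentile (951, 669, 844 and 949 intensity units in the same order). Control and outlier spots were left out, and spots of a probe averaged. A probe was tested if 1 group or more had it well above background on each of its arrays. Symbols came from RefSeq (GRCm38.p6) by unversioned accession (26901 of 41103 probes), and the brightest probe stood for a gene. The array design names build mm9, so probe coordinates are not given, and those of the promoter windows are from GRCm38.p6. Groups were compared with limma 3.58.1 in R 4.3.3 (two-sided, Benjamini-Hochberg over 19171 genes), with 2 residual and 2.82 prior degrees of freedom. A signal not well above background in a whole group gives an "at least" fold, against the array's lowest signal among probes well above background, or the probe's own where higher. All 4 arrays lay on 1 slide, and their number limits the precision. The code was tested on simulated data.

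Members and gene lists were chosen with earlier results of these data known. Named are all members, up to 4 genes of each related list (those past the test first, then the largest differences), and the 3 genes closest in profile to the members with the highest and lowest difference. Marker lists of myofibroblasts, epithelium, cartilage and bone, endothelium and leukocytes were also read, with summed signals of 21.3 to 49.2, 38.6 to 62.6, 5.21 to 6.89, 0.99 to 1.67 and 0.0926 to 0.188 times the 75th percentile. At a limma adjusted p under 0.05, 2 of 4 myofibroblast markers rose (Cnn1, Des) and 0 fell. In epithelium 1 of 6 rose (Krt19) and 1 fell (Cldn3). In cartilage and bone 1 of 5 rose (Col9a1) and 1 fell (Bglap). In endothelium 1 of 3 rose (Kdr) and 0 fell, and 0 of 2 leukocyte markers passed. Des and Col9a1 were not well above background on either OSK array and passed the filter on dim probes only through OSK+Glis1. Their rises are bounds, at least 1.03-fold for Des and at least 5.23-fold for Col9a1. Not well above background on any array were Myocd of the first list, Matn3, Ibsp and Sp7 of the third, Pecam1 and Tie1 of the fourth, and Itgam, Adgre1 and Lyz2 of the last. The part of these marker lists in the results was not tested.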

Additional observations from a re-analysis of the deposited data

How the results depend on the processing

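Over 13 alternatives for each of the 7 members (91 values), 78 kept their direction and side of the threshold, 3 passed the threshold and 10 changed sign, none of the 10 past the threshold. The 3 were Loxl1 under the corrected background and without OSK+Glis1 replicate 2, and Loxl3 without OSK replicate 2. Thus the members higher numbered 1 under normexp with flagged backgrounds replaced, and 0 to 1, higher or lower, with 1 array left out. With 1 array left out the differences ran from -0.85 to 0.15 for Loxl2, -0.45 to 0.4963 for Loxl4 and -0.49 to 0.35 for Plod3. Signs changed for Loxl2 without OSK replicate 1 (0.15), for Loxl4 under normexp (-0.11), with the mean of its probes (-0.0796) and without OSK replicate 1 (-0.45) or OSK+Glis1 replicate 2 (-0.0785), and for Plod3 with median centring (0.0734), normexp (0.34), deposited values (0.0842) and without OSK replicate 2 (0.35) or OSK+Glis1 replicate 2 (0.15). Over all genes, 1160 rose and 1566 fell, against 554 and 950 without a filter on dim probes and 0 and 0 under planned normexp in limma (1411 at an unadjusted p under 0.05). With 1 array left out, 449 to 786 rose and 664 to 1093 fell. Of the related genes, 5 rose and 14 fell, against 1 and 9 without the filter, 0 and 0 under normexp (13 at an unadjusted p under 0.05), 11 rising with flagged backgrounds replaced, and 1 to 5 and 6 to 11 with 1 array left out. The cause of these changes was not tested. Of the calls, 42.6% were higher, but 53.6% after centring on medians and 54.4% from deposited values (median differences 0.05, 0.20 and 0.21). Same-numbered samples shared no shift on average (correlation of same-numbered deviations 0.01 across genes), which cannot show whether they came from 1 culture. With the replicate block 0 members passed, 1111 genes rose and 1543 fell. Of the related genes 5 rose and 12 fell with it, Fkbp14 and Bmp1 losing their calls.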
